A study of Homo sapiens with 12 samples.

Results

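The genes described here are the 10 that carry methionine through transsulfuration to cysteine and on to glutathione, taken by symbol from the 43236 gene symbols in the count tables. They are *MAT2A* and *AHCY* of the methionine cycle, *CBS* and *CTH* of transsulfuration, *GCLC*, *GCLM* and *GSS* of glutathione synthesis, *GSR* of glutathione recycling, and *CHAC1* and *CHAC2* of glutathione breakdown. All 10 were among the 15979 genes that passed the filter on low counts. RNA was sequenced from MNNG/HOS cells, a chemically transformed derivative of the human osteosarcoma line HOS, with 3 replicates in each of 4 groups. The groups were cells given DMSO, the solvent control, for 6 h or 24 h, and cells given 300 nM NXP800 for 6 h or 24 h. No group carried a further genetic change, and all results come from 1 cell line. The study describes its results in general as means of independent experiments, while the labels and the RNA-seq methods speak only of replicates. The p-values measure the spread between these libraries, part of which may be technical.

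The methionine cycle makes S-adenosylmethionine, the methyl donor of the cell, and after methyl transfer it leaves homocysteine. Transsulfuration moves the sulfur of homocysteine to serine and releases cysteine, the scarce amino acid for glutathione, which cells also take up as cystine. Glutathione is the main small thiol that keeps tumor and normal cells reduced. Several of these genes are known targets of ATF4, the transcription factor of the integrated stress response, or of NRF2 (gene *NFE2L2*), the transcription factor of the oxidative stress response.

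The libraries held between 30810614 and 31947656 counts on genes. Reads on no annotated gene took 6.66 to 8.14% of a library at 6 h and 2.73 to 3.67% at 24 h, and multiply aligned reads 1.86 to 1.99% and 2.96 to 3.37%, so the libraries of the 2 times stood apart in more than time. A difference between the times cannot be told apart from that difference between library sets. Of the 4 mesenchymal markers checked, *COL1A1* was at 143 to 566 CPM, *SPARC* at 91.7 to 615 CPM, *COL1A2* had 0 to 12 counts, and *VIM* was at 3338 to 5891 CPM (counts relative to library size, as CPM, with sizes scaled by the trimmed mean of M values, TMM). Of the 5 genes of the osteoblast lineage, *RUNX2* was at 20.7 to 42.5 CPM, and *ALPL*, *SP7*, *BGLAP* and *IBSP* had at most 7 counts in any library. *PTPRC*, *CD3E*, *CDH1*, *KRT19* and *CDH5*, markers of leukocytes, epithelium and endothelium, had at most 7 counts, *PECAM1* 5 to 29, *EPCAM* was at 5.59 to 10.2 CPM and *CD68* at 60.9 to 154 CPM.

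At 6 h, 6 of the 10 genes were higher with NXP800 (*CBS*, *CTH*, *GCLC*, *GCLM*, *GSS* and *CHAC1*), 3 were lower (*MAT2A*, *AHCY* and *GSR*) and *CHAC2* passed in neither direction. Among all tested genes 25% were higher and 27.8% lower at this time, by edgeR's quasi-likelihood test at a Benjamini-Hochberg adjusted p below 0.05, the threshold used throughout. At 24 h, 5 of the 10 were higher and 3 lower, and *GCLM* and *CHAC2* passed in neither direction, beside 27.5% of all tested genes higher and 28.6% lower. The 8 genes that passed at 24 h had all passed at 6 h, in the same direction. The median log2 fold change of the 10 genes was 0.22 at 6 h and 0.25 at 24 h, against -0.046 and -0.0033 over all tested genes. These counts were of RNA in pooled cells, in which fewer cells of a kind and less RNA per cell cannot be told apart.

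All 3 NXP800 replicates lay above all 3 DMSO replicates for 5 of the 10 genes at 6 h and below them for 3, where 29.3% and 32.7% of all tested genes did so. At 24 h this held for 4 genes above and 2 below, beside 29% and 30.1% of all tested genes. The difference of the responses, 24 h minus 6 h, passed the threshold for *CTH* alone, which was lower, so that 1 of the 10 genes stood beside 13.8% of all tested genes with a lower and 12% with a higher response at 24 h. With the replicate number as a block this count rose to 4, with *MAT2A*, *AHCY* and *GSS* added, while over all genes it rose from 4129 to 6284, with 18.4% of them higher and 20.9% lower. With that block the counts of the 10 genes at 6 h and 24 h stayed at 9 and 8, beside 28.9% of all tested genes higher and 33.4% lower at 6 h, and 32% and 33.1% at 24 h.

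**Figure D1:**
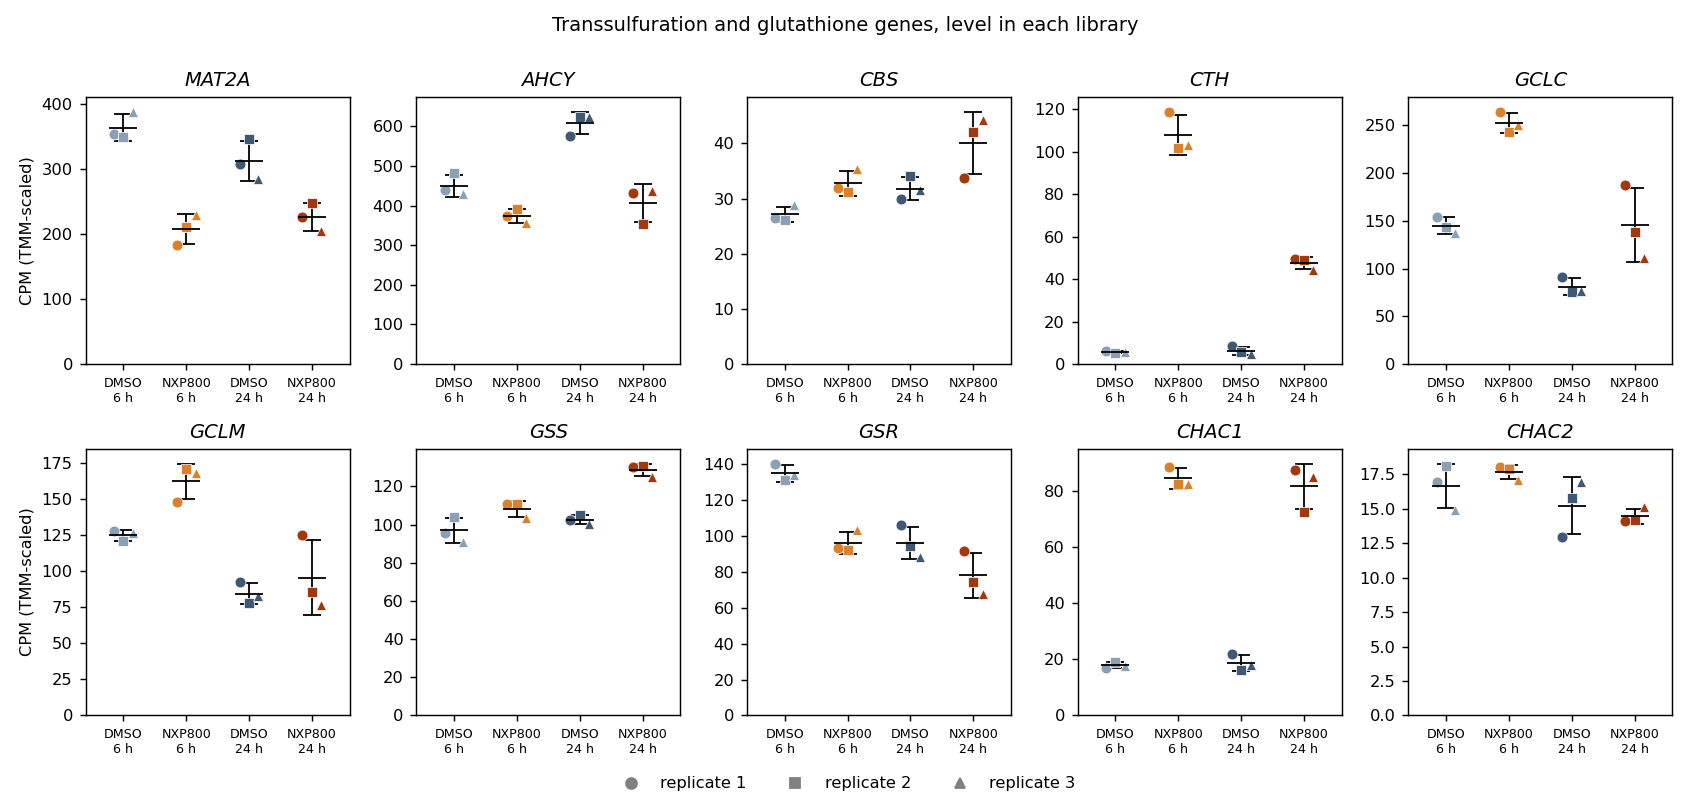
Level of each of the 10 genes in each library, in TMM-scaled CPM on a linear axis from 0, with points shaped by replicate number and black bars for the mean and SD of 3 replicates. *CTH* stood at 4.46 to 8.33 CPM in the 6 DMSO libraries and at 44.2 to 119 CPM in the 6 NXP800 libraries.

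**Figure D2:**
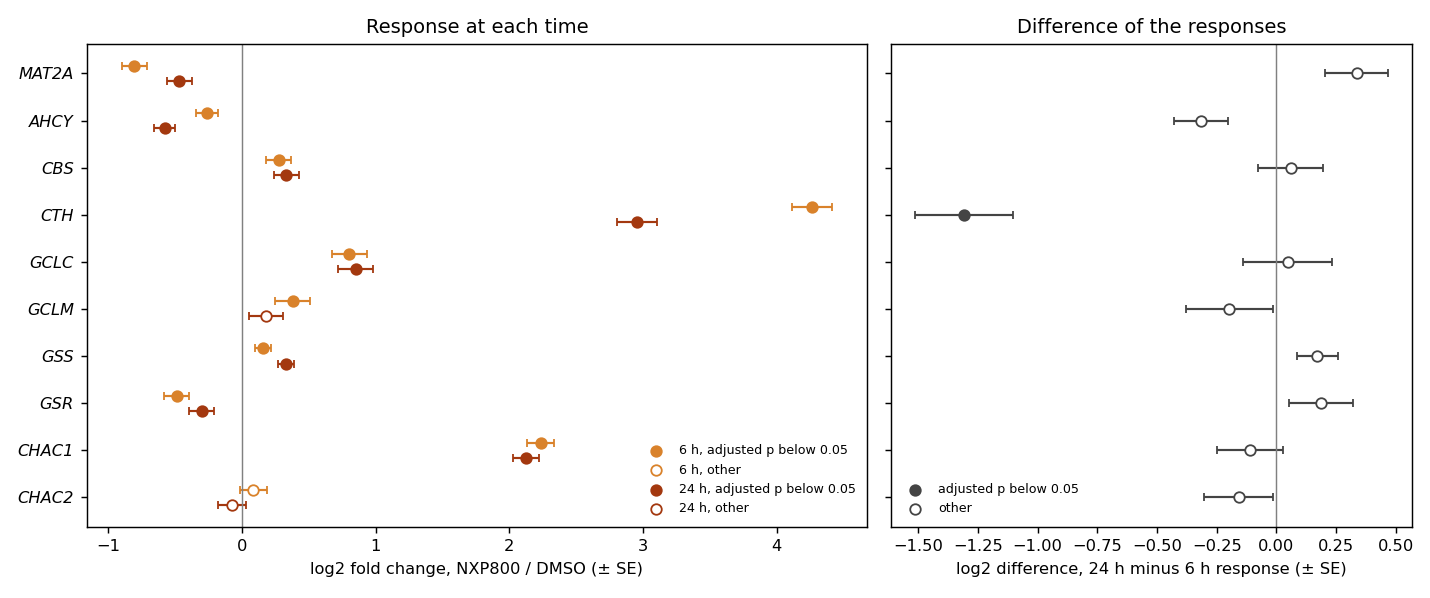
Log2 fold change of NXP800 against DMSO at 6 h and 24 h (left) and the difference of both responses (right), with bars of 1 SE from edgeR and filled points for an adjusted p below 0.05. *CTH* and *CHAC1* are far to the right of the other genes at both times, and *CTH* is the only filled point in the right panel.

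Promoter sequence is shown for 4 genes, the 2 with the largest rises (*CHAC1* and *CTH*), the relative of *CHAC1* that did not pass (*CHAC2*) and *GCLM*. RefSeq promoter windows on GRCh38.p14, from 250 bases before to 50 after each start, were used for 8 of the 10 genes, in 13 entries. Both strands were searched for TGATGNAA, the core of the composite C/EBP-ATF site that ATF4 binds, for TGACNNNGC, the core of the antioxidant response element that NRF2 binds, and for TGACGT, the first bases of the cyclic AMP response element. The last 2 share the letters TGAC and can overlap. Of 35116 windows, 3.62% held the first motif, 13.3% the second and 7.98% the third. The 220 bases before the start are given 5′ to 3′ on the strand of the gene, with matches in capitals.
CHAC1 (chr15:40953251-40953470, plus strand): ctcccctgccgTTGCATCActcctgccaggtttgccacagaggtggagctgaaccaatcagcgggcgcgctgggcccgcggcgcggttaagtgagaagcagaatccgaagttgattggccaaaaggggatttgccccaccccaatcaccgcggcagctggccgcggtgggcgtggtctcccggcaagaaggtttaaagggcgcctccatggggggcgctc
CTH (chr1:70411048-70411267, plus strand): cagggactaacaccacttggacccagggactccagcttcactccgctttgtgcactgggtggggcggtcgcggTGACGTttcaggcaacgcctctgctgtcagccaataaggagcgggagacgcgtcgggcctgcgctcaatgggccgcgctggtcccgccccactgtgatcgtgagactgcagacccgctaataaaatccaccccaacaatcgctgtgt
GCLM (chr1:93909431-93909650, minus strand): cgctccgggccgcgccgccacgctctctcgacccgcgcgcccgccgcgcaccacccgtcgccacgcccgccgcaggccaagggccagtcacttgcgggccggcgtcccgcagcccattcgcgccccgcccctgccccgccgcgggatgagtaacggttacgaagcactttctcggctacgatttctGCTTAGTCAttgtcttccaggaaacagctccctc
CHAC2 (chr2:53767563-53767782, plus strand): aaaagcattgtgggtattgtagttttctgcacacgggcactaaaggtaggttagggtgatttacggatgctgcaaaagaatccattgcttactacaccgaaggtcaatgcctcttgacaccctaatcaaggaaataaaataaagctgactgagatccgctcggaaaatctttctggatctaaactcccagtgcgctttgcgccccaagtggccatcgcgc
The capitals of *CHAC1* are the composite core on the reverse strand, whose first base lies 209 bases before the start. Those of *CTH* are TGACGT, 147 bases before the start. Those of *GCLM* are the antioxidant core on the reverse strand, 34 bases before the start. *CHAC2* held no match. Among the other windows, 1 of 3 of *CBS* held an antioxidant core on the reverse strand, 83 bases before its start, and those of *MAT2A*, *AHCY* and *GCLC* held none. *GSS* and *GSR* are named only. A match is a string of letters in this window and no measure of binding.

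Both methionine cycle genes fell at both times. *MAT2A* (chr2:85539168-85545281 on GRCh38.p14) encodes the S-adenosylmethionine synthetase of most cells outside the liver. Its level at 6 h was 353, 349 and 387 CPM in DMSO replicates 1 to 3 and 183, 210.4 and 229 CPM in the NXP800 replicates. The 24 h values were 307, 345 and 284 CPM with DMSO and 225, 248 and 204 CPM with NXP800. The NXP800 libraries were below every DMSO library of their time. *MAT2A* fell by 0.81 on the log2 scale at 6 h (SE 0.093, adjusted p = 2.52e-06) and by 0.47 at 24 h (SE 0.093, adjusted p = 0.000418). The 2 responses differed by 0.34 (SE 0.13, adjusted p = 0.0713), which passed with the replicate block (0.34, adjusted p = 0.000982, range over all alternatives 0.000982 to 0.192). In GENCODE, 12.5% of the exon length of *MAT2A* is shared with its neighbour *GGCX*, and the strand setting of the counting is not given in the sources used here.

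*AHCY* (chr20:34231981-34311836) encodes adenosylhomocysteinase, which clears S-adenosylhomocysteine, the product and inhibitor of methyl transfer. At 6 h it was at 438, 481 and 428 CPM with DMSO and at 373, 392 and 357 CPM with NXP800. At 24 h the DMSO libraries held 575, 623 and 625 CPM and the NXP800 libraries 430.5, 352 and 436.5 CPM. No NXP800 library reached a DMSO library of its time, and all DMSO libraries at 24 h were above those at 6 h. *AHCY* fell by 0.26 on the log2 scale at 6 h (SE 0.081, adjusted p = 0.0120) and by 0.58 at 24 h (SE 0.081, adjusted p = 1.57e-05). The responses differed by -0.32 (SE 0.11, adjusted p = 0.0533), and with the replicate block this passed (-0.32, adjusted p = 0.00700, range over all alternatives 0.00700 to 0.124). The call at 6 h was lost without DMSO replicate 2 (adjusted p = 0.06475) or without NXP800 replicate 3 (adjusted p = 0.0545), and over all alternatives the adjusted p ran from 0.00120 to 0.06475.

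The 2 transsulfuration genes both rose, by very different amounts. *CTH* (chr1:70411268-70439851) encodes cystathionine gamma-lyase, which releases cysteine from cystathionine. It was at 6.08, 5.36 and 5.41 CPM with DMSO at 6 h and at 119, 102 and 103 CPM with NXP800. In the 24 h libraries the level was 8.33, 5.55 and 4.46 CPM with DMSO and 49.3, 49.0 and 44.2 CPM with NXP800. The lowest NXP800 library was far above the highest DMSO library at each time, and the NXP800 levels at 24 h were all below those at 6 h, while the DMSO levels of both times overlapped. The DMSO libraries held 130 to 249 counts of *CTH*, the fewest of the 10 genes.

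*CTH* was 19.2-fold higher at 6 h (log2 fold change 4.26, SE 0.15, adjusted p = 7.1e-12) and 7.75-fold higher at 24 h (log2 fold change 2.96, SE 0.15, adjusted p = 2.04e-10). The response at 24 h was smaller than that at 6 h by 1.31 on the log2 scale (difference -1.31, SE 0.21, adjusted p = 0.000255). When each of the 12 libraries was left out in turn, the difference ran from -1.49 to -1.02. It passed under every alternative run, with adjusted p values from 1.12e-17 to 0.00116.

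*CBS* (chr21:43053191-43076873) encodes cystathionine beta-synthase, which joins homocysteine and serine. At 6 h it was at 26.5, 26.1 and 28.7 CPM with DMSO and at 31.8, 31.2 and 35.4 CPM with NXP800. The level at 24 h was 29.9, 34.1 and 31.5 CPM with DMSO and 33.7, 42.1 and 44.3 CPM with NXP800. The groups were apart at 6 h, and at 24 h NXP800 replicate 1 was below DMSO replicate 2. *CBS* was 1.21-fold higher at 6 h (log2 fold change 0.27, SE 0.096, adjusted p = 0.0241) and 1.26-fold higher at 24 h (log2 fold change 0.33, SE 0.095, adjusted p = 0.00701). The call at 6 h was lost without DMSO replicate 1 (adjusted p = 0.0726), DMSO replicate 2 (0.0794) or NXP800 replicate 3 (0.104), in a range of 0.00112 to 0.104 over all alternatives. *CBSL*, a near-identical copy of *CBS*, was not among the gene symbols counted, and how reads that fit both copies were treated is not known. Such reads may be missing from these counts, so the *CBS* level is uncertain.

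Per kilobase of transcript, the order of the 2 transsulfuration genes turned over with treatment in these counts. The uncertainty of the *CBS* level carries over to this order, as reads missing from *CBS* would make the ratio too high. The ratio of *CTH* to *CBS*, in CPM per kb of the MANE Select transcript, was 0.248 ± 0.025 (SD, n = 3) with DMSO at 6 h and 3.94 ± 0.48 with NXP800. At 24 h it was 0.232 ± 0.088 with DMSO and 1.44 ± 0.28 with NXP800. In CPM per kb, *AHCY* had the highest and *MAT2A* the next highest mean of the 10 genes in every group. *CTH* ranked 10 of 10 in both DMSO groups, at 2.69 and 2.93 CPM per kb, and ranked 6 with NXP800 at 6 h (51.6 CPM per kb) and 7 at 24 h (22.7 CPM per kb).

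**Figure D3:**
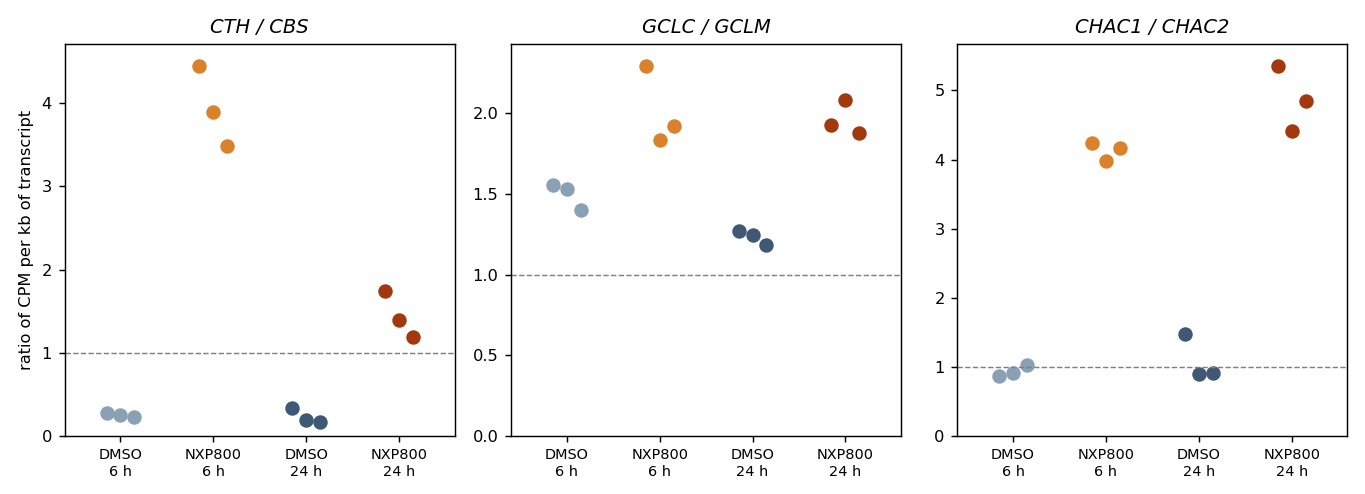
Ratio of *CTH* to *CBS*, of *GCLC* to *GCLM* and of *CHAC1* to *CHAC2* in each library, in CPM per kb of the MANE Select transcript, with a dashed line at equal levels. The NXP800 libraries sit above the DMSO libraries of their time in all 3 panels, and the *CTH* to *CBS* ratio is lower with NXP800 at 24 h (1.19 to 1.75) than at 6 h (3.49 to 4.45). Reads missing from *CBS* would make its ratio too high, so its place against the dashed line is uncertain.

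In glutathione synthesis, the catalytic subunit of the first enzyme rose more than its modifier. *GCLC* (chr6:53497341-53545101) encodes the catalytic subunit of glutamate-cysteine ligase, the rate-limiting enzyme of the pathway. Its 6 h levels were 154, 143 and 137 CPM with DMSO and 264, 244 and 251 CPM with NXP800. Cells kept for 24 h held 91.3, 75.2 and 76.1 CPM with DMSO and 187, 138 and 111 CPM with NXP800. All NXP800 libraries were above all DMSO libraries of their time, and the NXP800 libraries at 24 h were spread widely. *GCLC* was 1.74-fold higher at 6 h (log2 fold change 0.80, SE 0.13, adjusted p = 8.48e-05) and 1.80-fold higher at 24 h (log2 fold change 0.85, SE 0.13, adjusted p = 4.80e-05). The difference of the responses was 0.047 (SE 0.19, adjusted p = 0.887), with either sign when single libraries were left out. In GENCODE, 9.68% of its exon length is shared with other genes, among them *GCLC-AS1*.

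*GCLM* (chr1:93885199-93909430) encodes the modifier subunit, which lowers the amount of glutamate the ligase needs. At 6 h it was at 128, 121 and 126 CPM with DMSO and at 148, 171 and 168 CPM with NXP800, with no overlap. At 24 h it was at 92.5, 78.0 and 83.0 CPM with DMSO and at 125, 85.5 and 76.5 CPM with NXP800, so that NXP800 replicate 1 was above all DMSO libraries and NXP800 replicate 3 below them. *GCLM* was 1.30-fold higher at 6 h (log2 fold change 0.38, SE 0.13, adjusted p = 0.0209). At 24 h its log2 fold change was 0.18 (SE 0.13, adjusted p = 0.254), and the difference of the responses, -0.20, did not pass either (SE 0.18, adjusted p = 0.466). The call at 6 h was lost without DMSO replicate 2 (adjusted p = 0.06545), NXP800 replicate 2 (0.0676) or NXP800 replicate 3 (0.0570), in a range of 5.81e-06 to 0.0676. At 24 h the log2 fold change was -0.061 without NXP800 replicate 1 and 0.32 without NXP800 replicate 3 (adjusted p = 0.0353, in a range of 0.0351 to 0.571 over all alternatives). Without NXP800 24 h replicate 1 the difference of the responses was -0.44 and passed (adjusted p = 0.0112, in a range of 0.0112 to 0.835).

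Per kilobase, the ratio of *GCLC* to *GCLM* was 1.496 ± 0.084 (SD, n = 3) with DMSO and 2.02 ± 0.24 with NXP800 at 6 h. At 24 h it was 1.23 ± 0.046 with DMSO and 1.97 ± 0.11 with NXP800. At each time the lowest ratio with NXP800 was above the highest with DMSO.

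*GSS* (chr20:34928432-34956027) encodes glutathione synthetase, which adds glycine in the last step. At 6 h it was at 95.7, 104 and 91.0 CPM with DMSO and at 111, 111 and 103 CPM with NXP800, with NXP800 replicate 3 below DMSO replicate 2. For 24 h the values were 102, 105 and 100.3 CPM with DMSO and 130.1, 131 and 125 CPM with NXP800, with no overlap. *GSS* was 1.12-fold higher at 6 h (log2 fold change 0.16, SE 0.061, adjusted p = 0.0367) and 1.26-fold higher at 24 h (log2 fold change 0.33, SE 0.060, adjusted p = 0.000223). The small rise at 6 h was no call without the filter on low counts (adjusted p = 0.111). Nor was it one without DMSO replicate 1 (0.107) or 3 (0.166), or without NXP800 replicate 1 (0.111) or 2 (0.109), in a range of 0.00608 to 0.166. The difference of the responses was 0.17 (SE 0.086, adjusted p = 0.160), and with the replicate block it passed (0.17, adjusted p = 0.0495, in a range of 0.0471 to 0.380).

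*GSR* (chr8:30678066-30727846), for glutathione reductase, which returns oxidized glutathione to its reduced form, was called lower at both times. Its 6 h levels were 140.3, 131 and 134 CPM with DMSO and 93.3, 92.2 and 103 CPM with NXP800. Later, at 24 h, the level was 106, 94.7 and 88.1 CPM with DMSO and 91.7, 74.7 and 67.8 CPM with NXP800. The groups were apart at 6 h, and at 24 h NXP800 replicate 1 was above DMSO replicate 3. *GSR* fell by 0.49 on the log2 scale at 6 h (SE 0.094, adjusted p = 0.000370) and by 0.30 at 24 h (SE 0.095, adjusted p = 0.0122). The call at 24 h was lost with library size only as the scaling (adjusted p = 0.0554), and without DMSO replicate 1 (0.0651), NXP800 replicate 2 (0.0656) or NXP800 replicate 3 (0.0685), in a range of 5.98e-05 to 0.0685. The responses differed by 0.19 (SE 0.13, adjusted p = 0.334).

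At 24 h, replicate 1 was the highest of 3 in both treatments for *GCLC*, *GCLM* and *GSR*, and also for *CTH* and *CHAC1*. It was not so for *MAT2A*, *AHCY*, *CBS*, *GSS* and *CHAC2*. The same order was seen for *SLC7A11*, *TXNRD1* and *SRXN1*, which were set beside them after their values were seen. Other genes of the lists, among them *SLC3A2*, *GOT1*, *GPX1* and *ANPEP*, had it too, so it was not particular to glutathione genes. *SLC7A11*, the cystine importer, was at 127, 73.2 and 60.8 CPM in the DMSO libraries at 24 h and at 250, 199 and 137 CPM in the NXP800 libraries. Between libraries of the same number at 24 h, the ratio of NXP800 to DMSO for *GCLC* was 2.05, 1.84 and 1.46, and for *GCLM* 1.35, 1.10 and 0.922. The replicate number therefore moved with the level of these genes at 24 h, and its part in their responses was not tested beyond the block.

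**Figure D4:**
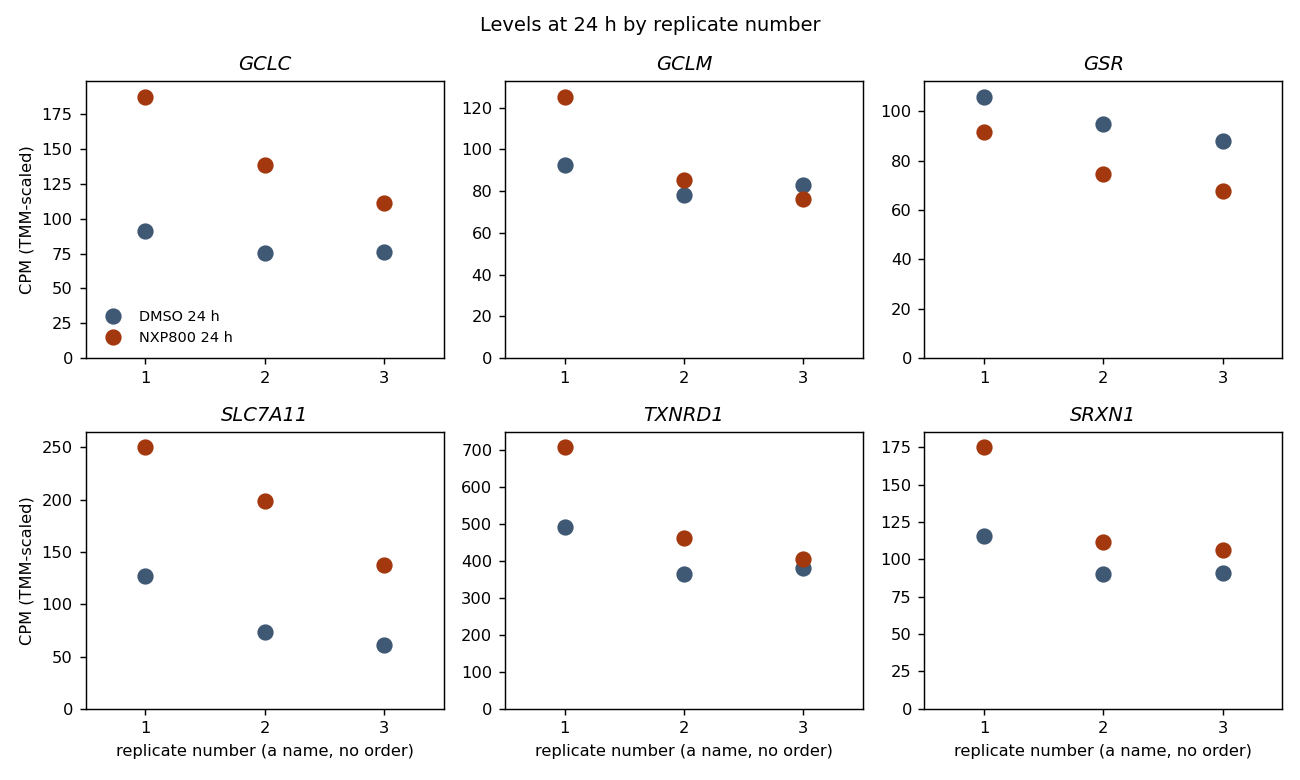
Level at 24 h of 6 genes of glutathione and thiol metabolism in each library, in TMM-scaled CPM on a linear axis from 0, by replicate number and treatment. Replicate 1 is the highest of its group in every panel, as it was for some genes not drawn, such as *CTH* and *CHAC1*. The points of both treatments cross for *GCLM*, where NXP800 is above DMSO in replicate 1 (125 against 92.5 CPM) and below it in replicate 3 (76.5 against 83.0 CPM).

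The 2 glutathione breakdown genes parted. *CHAC1* (chr15:40953471-40956512) encodes a gamma-glutamylcyclotransferase that splits glutathione and is known as a gene of the unfolded protein response. At 6 h it was at 17.01, 19.2 and 17.7 CPM with DMSO and at 88.7, 82.5 and 82.5 CPM with NXP800. At 24 h it was at 22.0, 16.4 and 17.9 CPM with DMSO and at 87.6, 72.5 and 84.9 CPM with NXP800. The NXP800 libraries of both times overlapped each other, as did the DMSO libraries, and the treatments were far apart. *CHAC1* was 4.70-fold higher at 6 h (log2 fold change 2.23, SE 0.10, adjusted p = 1.05e-10) and 4.36-fold higher at 24 h (log2 fold change 2.12, SE 0.10, adjusted p = 1.29e-10). The difference of the responses was -0.11 (SE 0.14, adjusted p = 0.604).

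*CHAC2* (chr2:53767783-53775196) encodes the related enzyme, which is known to split glutathione slowly. With DMSO for 6 h its libraries held 16.95, 18.1 and 14.9 CPM, and with NXP800 17.99, 17.9 and 17.04 CPM. The 24 h libraries held 12.9, 15.7 and 16.96 CPM with DMSO and 14.1, 14.1 and 15.1 CPM with NXP800. The treatments overlapped at both times. Its log2 fold change was 0.085 at 6 h (SE 0.10, adjusted p = 0.506) and -0.074 at 24 h (SE 0.10, adjusted p = 0.566). The sign at 24 h turned with library size only as the scaling.

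The ratio of *CHAC1* to *CHAC2*, in CPM per kb of transcript, was 0.934 ± 0.081 (SD, n = 3) with DMSO and 4.13 ± 0.14 with NXP800 at 6 h. At 24 h it was 1.09 ± 0.33 with DMSO and 4.87 ± 0.47 with NXP800. The 2 transcripts were thus at near levels per length in the DMSO libraries and stood apart in every NXP800 library, where the lowest ratio was 3.97.

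The genes with the most similar profile were sought for *CHAC1*, *CTH* and *GCLM*, by the distance between log2 CPM values over the 12 libraries after each gene was centred on its own mean. For *CHAC1* they were *ULBP1*, a ligand of the NKG2D receptor (distance 0.604), *GJB2*, a connexin (0.657), and *IFI16*, a DNA sensor (0.667), against 3.99 for the median gene. The log2 fold change of *ULBP1* was 2.07 at the early time and 1.83 at the late one. For *CTH* they were *SESN2*, a stress-induced regulator of mTORC1 (0.958), *KDM7A*, a histone demethylase (1.21), and *ALOXE3*, a lipoxygenase (1.27), against 6.61 for the median gene. That of *SESN2* was 4.40 at the early time and 3.19 at the late one. For *GCLM* they were *COX20* (0.459), *LOC728024* (0.465) and *DNAJB14* (0.466), against 1.87. The distances to *GCLM* lay close together, and the last 3 genes had no larger log2 fold change than 0.54 at either time.

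Of the genes around these steps, both chains of the cystine importer rose at both times, and the genes of cysteine disposal were divided. In the list of cysteine supply and disposal, 10 of 11 genes were tested, and 3 were higher and 4 lower at 6 h, where 25% and 27.8% of all tested genes were. At 24 h 4 were higher and 2 lower, beside 27.5% and 28.6% of all. With the replicate block, 3 were higher and 5 lower at 6 h and 5 higher and 3 lower at 24 h. All tested genes then had 28.9% higher and 33.4% lower at 6 h, and 32% and 33.1% at 24 h. *SLC7A11* rose at 6 h (log2 fold change 1.24, SE 0.22, adjusted p = 0.000205) and at 24 h (1.17, SE 0.23, adjusted p = 0.000343), and its partner chain *SLC3A2* rose as well (0.50 and 0.68). *GOT1*, an aspartate aminotransferase that also acts on cysteine sulfinate, rose by 1.67 and 1.03 on the log2 scale, less at 24 h than at 6 h (difference -0.64, adjusted p = 0.00684). *SUOX*, sulfite oxidase, fell by 1.14 at 6 h and by 0.38 at 24 h, and *NFS1*, the cysteine desulfurase of iron-sulfur cluster assembly, fell by 1.08 and by 0.63. Both falls were smaller at 24 h (differences 0.76 and 0.44, adjusted p = 0.00114 and 0.0103). *MPST*, a sulfurtransferase, fell by 0.31 at 6 h, and its value at 24 h was -0.18 (adjusted p = 0.1197, and 0.00971 with the replicate block). The difference of its responses was 0.13 (adjusted p = 0.513, and 0.219 with the replicate block). *TST*, the sulfurtransferase rhodanese, changed direction. It was lower at the early time (log2 fold change -0.44, adjusted p = 0.00156) and higher at the late one (0.36, adjusted p = 0.00527), a difference of 0.80 (adjusted p = 0.000630). *SLC3A2*, *NFS1*, *MPST* and *TST* were named after their values were seen.

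Of 15 genes of the methionine cycle and salvage beside *MAT2A* and *AHCY*, 11 were tested. At 6 h 2 were higher and 4 lower (25% and 27.8% of all tested genes), and at 24 h 1 was higher and 3 lower (27.5% and 28.6% of all). With the replicate block, 3 were higher and 5 lower at 6 h, beside 28.9% and 33.4% of all tested genes. At 24 h 2 were higher and 5 lower with it, beside 32% and 33.1% of all. There *AHCYL2* was added on the higher side and *AHCYL1* and *MTR* on the lower. *MRI1* and *ADI1*, enzymes of methionine salvage, fell at both times, *MRI1* by 1.02 and by 1.04 and *ADI1* by 0.44 and by 0.44. *BHMT2*, a homocysteine methyltransferase, fell by 0.47 and by 0.60. *MTAP*, the first enzyme of salvage, had 0 counts in all 12 libraries, where a count of 0 allows up to 3 counts a library, or 0.103 CPM in the library of lowest scaled size, for counting error only.

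Of 11 other genes of glutathione breakdown, 8 were tested. At 6 h 1 was higher and 2 lower, beside 25% and 27.8% of all tested genes, and at 24 h 3 were higher and 2 lower, beside 27.5% and 28.6%. With the replicate block, 2 were higher and 2 lower at 6 h, beside 28.9% and 33.4% of all tested genes. At 24 h 3 were higher and 3 lower with it, beside 32% and 33.1%. *GGT5*, a gamma-glutamyltransferase, fell by 0.57 at 6 h and by 1.08 at 24 h. *OPLAH*, the 5-oxoprolinase that recovers glutamate from the product of CHAC1, rose at 24 h, by 1.07 on the log2 scale (adjusted p = 3.19e-06). At 6 h the value was 0.22 (adjusted p = 0.173), and the responses differed (0.84, adjusted p = 0.00343). At 6 h the rise of *OPLAH* passed with the replicate block (adjusted p = 0.0382). *ANPEP*, a surface aminopeptidase, rose at 24 h, by 0.69 (adjusted p = 0.0146), where its treatments overlapped. Its value at 6 h was -0.014 (adjusted p = 0.963), and the difference of its responses was 0.71 (adjusted p = 0.113, and 0.000113 with the replicate block).

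The 4 regulators passed at both times, 3 higher and 1 lower, and did so with the replicate block as well. Of all tested genes 25% were higher and 27.8% lower at 6 h, and 27.5% and 28.6% at 24 h. With the block these shares were 28.9% and 33.4% at 6 h, and 32% and 33.1% at 24 h. *ATF4* rose by 0.66 at 6 h (adjusted p = 1.63e-06) and by 0.51 at 24 h (adjusted p = 1.91e-05) on the log2 scale. *NFE2L2* rose by 0.93 and 0.59, and *BACH1*, a repressor at antioxidant response elements, by 1.22 and 0.71. *KEAP1*, which leads NRF2 to degradation, fell by 0.35 and by 0.27. The responses of *NFE2L2* and *BACH1* were smaller at 24 h (differences -0.34 and -0.51, adjusted p = 0.0299 and 0.00652). These are RNA levels, and the activity of the encoded factors was not measured in these libraries.

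**Figure D5:**
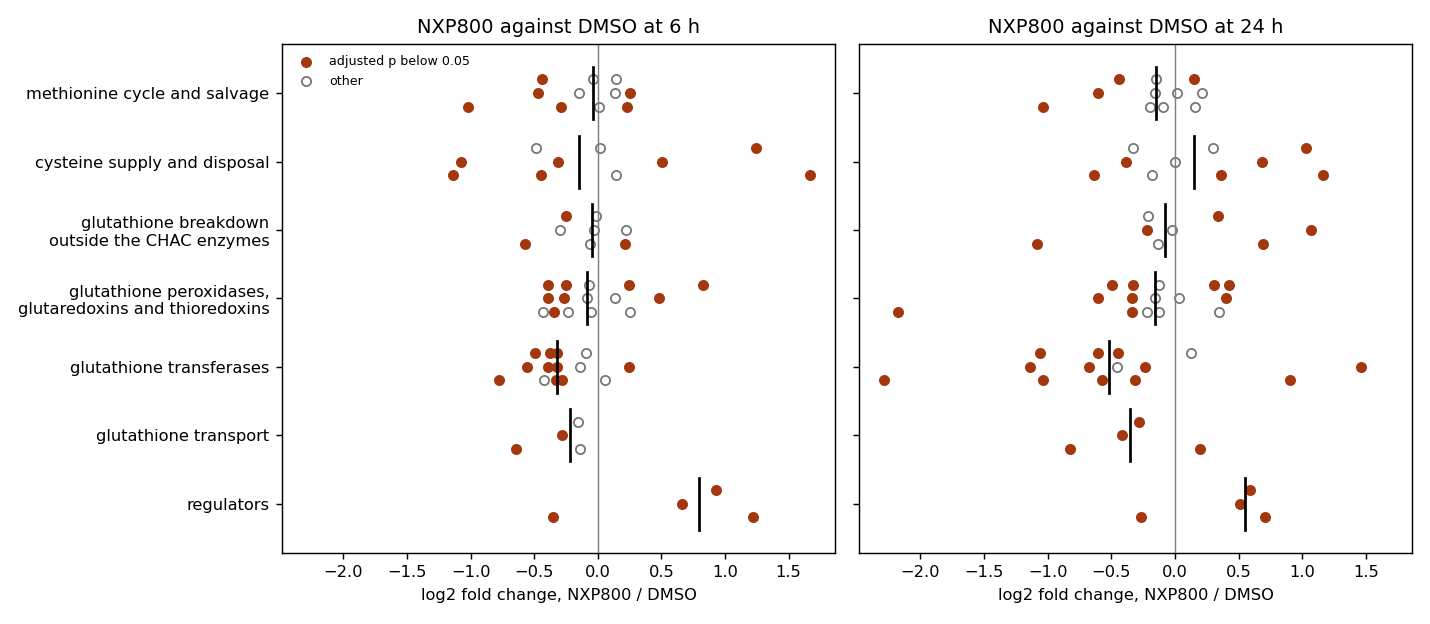
Log2 fold change of every tested gene of 7 lists around the 10 genes, at 6 h (left) and 24 h (right), with filled points for an adjusted p below 0.05 and a black line at the median of each list. Most of the filled points of the glutathione transferases lie left of 0, with 9 lower and 1 higher at 6 h and 10 lower and 2 higher at 24 h.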

How the data were processed

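RNA of MNNG/HOS cells was measured in 12 libraries, 3 per group, from a strand-specific mRNA kit. The deposited files hold raw, unnormalized counts for each gene. Per the labels and the methods, the authors trimmed reads with fastp 0.20.1, aligned to hg38 with STAR 2.7.5a and used HTSeq 0.12.4 to count reads over RefSeq genes (GRCh38.p14). The strand setting and counting mode are not given in the sources used here. The NXP800 dose is from the study's methods. Counter entries that name no gene stayed out of library sizes and tests: no feature 2.73 to 8.14%, ambiguous 2.10 to 2.43% and multiply aligned 1.86 to 3.37% of a library.

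The analysis ran in R 4.3.3, with edgeR 4.0.16 (filterByExpr, TMM, quasi-likelihood test, limma 3.58.1) in 1 model of the 4 groups. Contrasts were NXP800 against DMSO at 6 h, at 24 h, and the difference of both. The SE is the log2 fold change divided by the square root of the F statistic. With about equal depth in all libraries, the spread between replicates limits the precision more than counting error. Replicates of a group differed by more than sampling noise (chi-square per degree of freedom 7.36 to 26.3). The labels do not say whether libraries of the same replicate number were made together. Deviations from the group means correlated across genes, which are not independent replicates. For the same number r was 0.159 to 0.329, and for different numbers -0.268 to 0.0580. The deviations of the 3 replicates of a group sum to 0, so positive r for the same number pulls the others down. The procedures were tested on simulated data, with 200 genes changed 2-fold in the NXP800 6 h libraries only. The edgeR test recovered 148 of them at 6 h, with 11 other calls. No replicate effect was drawn, so the simulation could not judge the replicate block.

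Alternatives were DESeq2 size factors, library size only, no filter, at least 10 counts in every library, 1 time point alone, a replicate block, DESeq2 1.42.0 (Wald), an adjusted p below 0.01, and each library left out. The genes and lists were chosen with earlier results of these data known. Beyond the 10 genes and 4 regulators, the rule named the 3 largest called changes of each list and the 3 nearest genes in profile of *CHAC1*, *CTH* and *GCLM*. Gene spans come from RefSeq (GRCh38.p14), exon overlaps and MANE Select lengths from GENCODE v44, and promoters from RefSeq, whose models can differ from those counted on.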

Additional observations from a re-analysis of the deposited data

Results flagged for a closer look

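In the model without a replicate block, the response of *CTH* was the 1 result among the 10 genes in which the time points differed by a test of the difference itself. With the block, the differences of *MAT2A*, *AHCY* and *GSS* passed too. The fold change of *CTH* on the log2 scale was 4.26 early and 2.96 late, a difference of -1.308 (edgeR's quasi-likelihood test without the block, adjusted p = 0.000255). All 3 NXP800 libraries at 24 h (44.2 to 49.3 CPM) were below all 3 at 6 h (102 to 119 CPM), and the DMSO libraries of both times overlapped. The library sets of the 2 times also differed in reads on no gene, and time and library set cannot be told apart.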

How the results depend on the processing

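*MAT2A*, *CTH*, *GCLC* and *CHAC1* kept their direction and their call at both times under every alternative, and so did *GSR* at 6 h and *AHCY*, *CBS* and *GSS* at 24 h. At an adjusted p below 0.01, 5 of the 10 genes were called at 6 h. The share of all tested genes called at 6 h under this threshold is not given here. Whether 5 of the 10 is many or few therefore cannot be judged. The count for the difference of the responses, 1 gene, was 3 with library size only, where 2463 of all tested genes were higher and 1670 lower. For the filters, DESeq2 and left-out libraries, no count over all genes is given here, so none is given for the 10 genes. Gene by gene, the difference of *CTH* passed under all 18 alternatives run at an adjusted p below 0.05. That of *AHCY* passed under 8 of the 18, that of *MAT2A* under 6, that of *GSS* under 2 and that of *GCLM* under 1. Over all genes that difference had 4129 calls, and 2236 at an adjusted p below 0.01. With the replicate block it had 6284 calls, and 4 of the 10 genes. The replicate block changed no other call among the 10 genes, and among the genes of the lists it added calls, which are given beside them. With no filter *GCLM* passed at 24 h (adjusted p = 0.0351). With library size only, *CHAC2* at 24 h was at 0.017, and the share of higher genes among the calls of the difference was 59.6% in place of 46.6%. Left-out libraries gave log2 fold changes of both signs for *CHAC2* (-0.18 to 0.011) and *GCLM* (-0.061 to 0.32) at 24 h. They did so for the differences of *GCLC* (-0.18 to 0.21), *CHAC1* (-0.20 to 0.020) and *CBS* (-0.019 to 0.17), none of which was called. The cause of these changes was not tested.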

Other observations

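Of 20 glutathione transferases, 14 were tested. At 6 h 9 were lower and 1 higher (median -0.32 on the log2 scale), where 27.8% of all tested genes were lower and 25% higher, with a median of -0.046. At 24 h 10 were lower and 2 higher (median -0.52), beside 28.6% and 27.5% of all, with a median of -0.0033. The replicate block left these counts as they were. Over all tested genes it gave 28.9% higher and 33.4% lower at 6 h, and 32% and 33.1% at 24 h. By edgeR's quasi-likelihood test, *GSTM1* fell by 0.56 at 6 h and by 1.14 at 24 h (adjusted p = 0.000139 and 9.14e-08). *GSTO2* rose at 24 h, by 1.46 (adjusted p = 0.000120), with 15 to 23 counts in the DMSO libraries and 49 to 64 in the NXP800 libraries, and its value at 6 h was 0.058 (adjusted p = 0.871). *GSTM2*, among the 10 lower genes at 24 h, had a log2 fold change of -2.28 (adjusted p = 0.000196). It held 12 to 16 counts with DMSO and 2 to 5 with NXP800, and at 6 h 7 to 10 and 7 to 9. Only the DMSO 24 h libraries were all above 10 counts. *GSTM2* thus passed the filter on low counts through the group where it was highest, which favours a fall, so its call is no support. The GSTM genes are close copies of each other, and how their shared reads were counted makes their values uncertain.

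Of 16 peroxidase, glutaredoxin and thioredoxin genes, 15 were tested. At 6 h 3 were higher and 5 lower, shares near those of all tested genes (25% and 27.8%), and at 24 h 3 were higher and 6 lower (27.5% and 28.6% of all). With the replicate block, 5 were higher and 7 lower at 6 h, beside 28.9% and 33.4% of all tested genes. At 24 h 4 were higher and 8 lower with it, beside 32% and 33.1% of all. *GPX3*, the secreted glutathione peroxidase, was at 22.6, 20.04 and 16.1 CPM with DMSO at 24 h and at 5.85, 3.14 and 4.05 CPM with NXP800. Its fall at 24 h, by 2.17 on the log2 scale, passed (adjusted p = 2.50e-07), while the value at 6 h was -0.43 (adjusted p = 0.0572, and 0.000421 with the replicate block), and the responses differed (-1.74, adjusted p = 0.000279). *TXNRD1*, thioredoxin reductase, rose by 0.83 at 6 h (adjusted p = 0.000395) and its value at 24 h was 0.35 (adjusted p = 0.0764, and 0.000560 with the replicate block). The difference of its responses was -0.48 (adjusted p = 0.130, and 0.000369 with the replicate block). *TXN2*, mitochondrial thioredoxin, fell by 0.35 and by 0.60. All 4 genes of glutathione transport were tested, with 0 higher and 2 lower at 6 h, beside 25% and 27.8% of all tested genes, and 1 higher and 3 lower at 24 h, beside 27.5% and 28.6%. With the replicate block all 4 were lower at 6 h, beside 33.4% of all tested genes, with *ABCC4* (adjusted p = 0.0377) and *ABCC1* added. *SLC25A39* and *SLC25A40*, which carry glutathione into mitochondria, fell by 0.28 and by 0.64 at 6 h and by 0.28 and by 0.82 at 24 h. *ABCC1*, an exporter, fell at 24 h, by 0.42 (adjusted p = 0.000783), and its value at 6 h was -0.15 (adjusted p = 0.160, and 0.0106 with the replicate block). The difference of its responses was -0.26 (adjusted p = 0.139, and 0.00597 with the replicate block). *ABCC4* was named after its values were seen.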
